A study of Mus musculus with 28 samples.

Results

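The ADAR family was described here as its 3 mouse genes, Adar, Adarb1 and Adarb2, which were chosen by name. They are 3 of the 35858 genes that the transcript files of liver and pancreas give and 3 of the 24845 genes in a table of liver and lung. Their 28 annotated transcripts (9 of Adar, 13 of Adarb1 and 6 of Adarb2) were all among the 119414 transcripts quantified. The study expressed human APOBEC3B (A3B), a cytidine deaminase, in mice and compared A3B animals with control animals, and the question addressed here is whether the enzymes of the other kind of RNA editing moved with it. The first set holds livers and pancreases of 6 A3B mice and 2 controls for each tissue, with transcript values from kallisto, and the second set holds livers and lungs of 3 A3B mice and 3 controls for each tissue, with TPM per gene (transcript abundance per length, scaled to a fixed total in each sample).

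ADAR enzymes bind double-stranded RNA and convert adenosine to inosine, which ribosomes read as guanosine. Adar makes a long protein (p150) from a promoter that interferon induces, and a shorter protein (p110) from a promoter that is active in most cells. The long form is known for marking the cell's own double-stranded RNA, so that sensors such as Ifih1 (MDA5) and Eif2ak2 (PKR) do not respond to it. Adarb1 (ADAR2) is known for recoding glutamate receptor transcripts in neurons, and Adarb2 (ADAR3) is a brain protein for which no editing activity is known.

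A3B animals carried a tetO-driven A3B transgene, fused to turboGFP in the ColA1 locus, together with the CAGs-rtTA3 driver, which is constitutive and broad, so that doxycycline acts on all cell types with the driver. They were 4-week-old adults when doxycycline food began. The labels give them as A3B + CAGS-rtTA, with 14 days of doxycycline for livers 23 and 28 and 10 days for every other A3B sample. Controls were given as A3B, the transgene without the driver, so apart from 1 lung all groups shared the A3B transgene. The exceptions were control liver 11 (A3B + CAGS-rtTA) and control lung 87 (CAGs, the driver alone). The labels give 10 days on doxycycline for the controls of the first set and 15 days for those of the second, whereas the study's list of mice gives no doxycycline for the latter apart from lung 87. For the controls of the first set the list of mice gives 10 days as well, but in 1 place the study's text describes both as animals without doxycycline. If so, doxycycline and group cannot be told apart in that set. By the list of mice the same holds for the second set, where lung 87 is the only control with doxycycline. Genotype labels and titles conflicted in the pancreas. A3B pancreases 44 and 137 had the genotype label A3B, and control pancreases 45 and 168 had the label A3B + CAGS-rtTA. The group was taken from the title for these 4, with which the list of mice agrees. Both tissues of the first set came from 1 animal for A3B mice 44, 49, 125, 137 and 153 and controls 45 and 168, as did both tissues of the second set for A3B mouse 70 and control 91.

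The libraries of the first set held between 65161064 and 118976013 estimated counts. In the second set the transgene lay between 90.6 and 1705 TPM in A3B samples and at or below 0.526 TPM in controls, whereas the transcripts of the first set hold no human A3B. Control liver 11 was the only sample of the second set with the Y-linked gene Ddx3y, at 9.09 TPM against at most 0.0239 TPM in the other 11. Hepatocyte markers summed to at least 2296 TPM in each liver, with each A3B liver below each control of its set (31783 to 76473 against 91769 and 139828 TPM, and 2296 to 4769 against 6102 to 7681 TPM), and alveolar type II markers to at least 9262 TPM in each lung.

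Adar lies on chromosome 3 of GRCm38, at chr3:89715022-89753446 on the plus strand, and its annotated transcripts differ in where they begin and in where translation starts. Adar-202 begins at the upstream promoter with a first exon of 129 bases and is the constitutive form, with 930 residues. Adar-201 and Adar-203 begin further downstream with a first exon of 91 bases at chr3:89730748-89730838, and are the long forms, with 1152 and 1178 residues. Adar-202 and Adar-203 share all further exons, so the division of reads between them rests on their first exons alone. Adar-204 and Adar-205 also begin with the 91-base exon, lack the following exon of 1432 bases and have 660 and 634 residues. Adar-201, Adar-204 and Adar-205 end at chr3:89751406, whereas Adar-202 and Adar-203 end at chr3:89753446. No constitutive transcript with the nearer end is annotated, so reads of one could be counted in the other classes. The other 4 transcripts are non-coding.

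**Figure D1:**
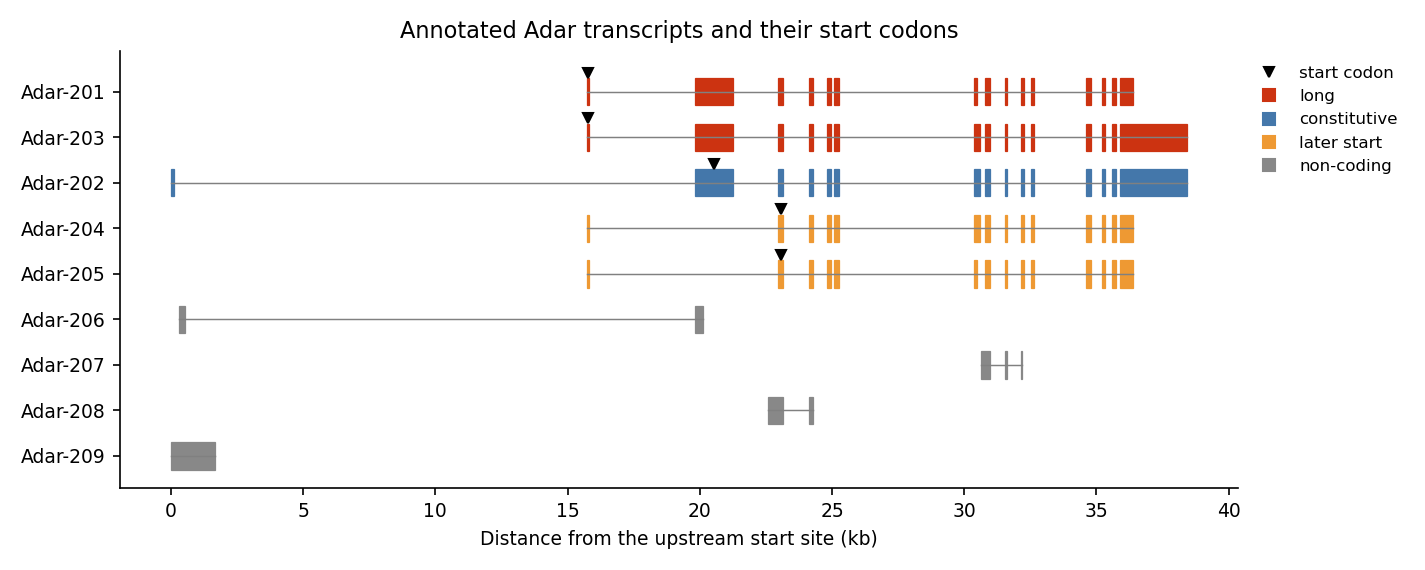
Exons of the 9 annotated Adar transcripts (boxes, to scale) against distance in kb from the upstream start site, coloured by class, with start codons as triangles. The long transcripts start translation in their own first exon, Adar-202 within the second exon and Adar-204 and Adar-205 one exon later.

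The start codons, with the first bases of each reading frame, show what separates the 3 coding classes. The long frame opens with 28 coding bases that only the inducible first exon supplies, the constitutive frame opens at the codon for residue 249 of the long protein, and that of Adar-204 and Adar-205 opens at residue 519. Capitals mark the start codon.
Adar-203, long, from the annotated transcript: ATGtctcaagggttcaggggacccacag
Adar-202, constitutive: ATGgctgaaatcaaggagaagatctgtgac
Adar-205, later start: ATGgcgattctgcttcgggaagccaaagcc

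The sequences before the 2 promoters are shown because the long and the constitutive transcripts begin at them. Use of the promoters themselves was not measured. They come from RefSeq on GRCm38.p6 and are on the plus strand, and all 3 genes matched the promoter table. Capitals mark matches to GAAANNGAA, the core of the element that interferon regulatory factors bind, searched on both strands.
Upstream promoter, chr3:89714772-89715021: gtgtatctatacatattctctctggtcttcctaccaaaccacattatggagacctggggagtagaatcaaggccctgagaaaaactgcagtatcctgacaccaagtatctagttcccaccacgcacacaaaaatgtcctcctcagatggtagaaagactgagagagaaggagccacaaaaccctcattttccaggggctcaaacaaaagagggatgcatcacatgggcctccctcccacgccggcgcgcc
Inducible promoter, chr3:89730468-89730717: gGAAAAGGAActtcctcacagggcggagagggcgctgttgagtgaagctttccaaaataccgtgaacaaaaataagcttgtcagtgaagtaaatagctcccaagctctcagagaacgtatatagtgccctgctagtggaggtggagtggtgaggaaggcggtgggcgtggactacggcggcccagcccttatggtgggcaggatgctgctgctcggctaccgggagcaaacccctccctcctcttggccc
Element at the inducible start, chr3:89730738-89730767: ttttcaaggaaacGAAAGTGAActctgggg
The letters matched at 2 places in the 300 bases around the inducible start (250 before and 50 after the RefSeq start) and at none in the window of the upstream promoter or in those of Adarb1 and Adarb2. The second match begins 33 bases after the RefSeq start and 3 bases after the GENCODE start. Among all 32851 promoters of this length 8.56% held the letters. A match describes the letters and shows no binding.

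In the pancreas, Adar was several-fold higher in A3B mice, and its level there separated the groups fully. The 6 A3B pancreases had 24.5, 27.0, 30.2, 30.8, 31.3 and 55.8 TPM, against 0.981 TPM in control 45 and 3.50 TPM in control 168. Every A3B sample was thus above both controls, with pancreas 49 well above the other 5. Counts scaled by edgeR's trimmed mean of M-values (TMM) put the A3B pancreases at 78.4 ± 15.3 CPM (counts scaled to a common library size; SD, n = 6) and the controls at 20.0 ± 1.07 (n = 2). The log2 difference was 1.97 ± 0.26 (SE), with an adjusted p of 0.00057 by edgeR's quasi-likelihood test over 19123 genes. Of those genes 31.9% were called, 17% as higher and 14.9% as lower. On the TPM scale 70.8% of the tested genes lay higher in all 6 A3B pancreases than in both controls, and on the TMM scale 25.1% did, so a full separation is a common pattern in this tissue.

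The size of the pancreas difference depends on the scale. Scaling counts by their totals moved the log2 difference of Adar to 4.15 and the median of all tested genes from 0.09 to 2.29, so Adar lay about as far above the median gene on both scales. Cell type markers moved with the group. Of 7 acinar markers 6 were lower, with a summed level of 61991 to 165632 TPM in A3B pancreases against 366544 and 371981 TPM in controls. Of 5 macrophage markers 4 were higher (1552 to 4668 TPM against 44.7 and 529.9 TPM), as were 4 of 5 fibroblast markers (374 to 755 TPM against 24.2 and 117 TPM) and 3 of 4 duct markers (311 to 724 TPM against 12.03 and 50.1 TPM). Of 4 endothelial markers 1 was higher (52.9 to 84.8 TPM against 7.08 and 16.2 TPM), whereas 1 of 5 endocrine markers (3409 to 12710 TPM against 3146 and 3174 TPM) and 1 of 5 markers of neurons and glia (3.55 to 7.41 TPM against 0.775 and 2.66 TPM) were lower by edgeR. No marker of these 7 lists was at 0 throughout a group. Their part in the Adar result was not tested, and in bulk tissue fewer cells of a type and less RNA per cell cannot be told apart.

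In the livers of the same set, Adar ran in the same direction without passing the test. The A3B livers had 8.65, 15.5, 16.5, 17.5, 17.99 and 30.5 TPM, against 10.6 TPM in control 45 and 6.25 TPM in control 168. A3B liver 48 lay between the controls and the other 5 lay above both. On the TMM scale the means were 49.0 ± 12.2 CPM (SD, n = 6) and 32.4 ± 6.90 CPM (n = 2), with a log2 difference of 0.59 ± 0.31 (SE; edgeR adjusted p = 0.278), and 0.31 (adjusted p = 0.822) without control liver 168. The test called 3.66% of 17365 genes (1.26% as higher, 2.41% as lower), and on the TPM scale 24.3% of genes lay higher in all A3B livers. It called 0 of the 3 members, of which 0 had an unadjusted p under 0.05 and DESeq2 also called 0. Scaling counts by totals moved the log2 difference of Adar to 1.07 (edgeR adjusted p = 0.103) and the median gene from 0.21 to 0.67.

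**Figure D2:**
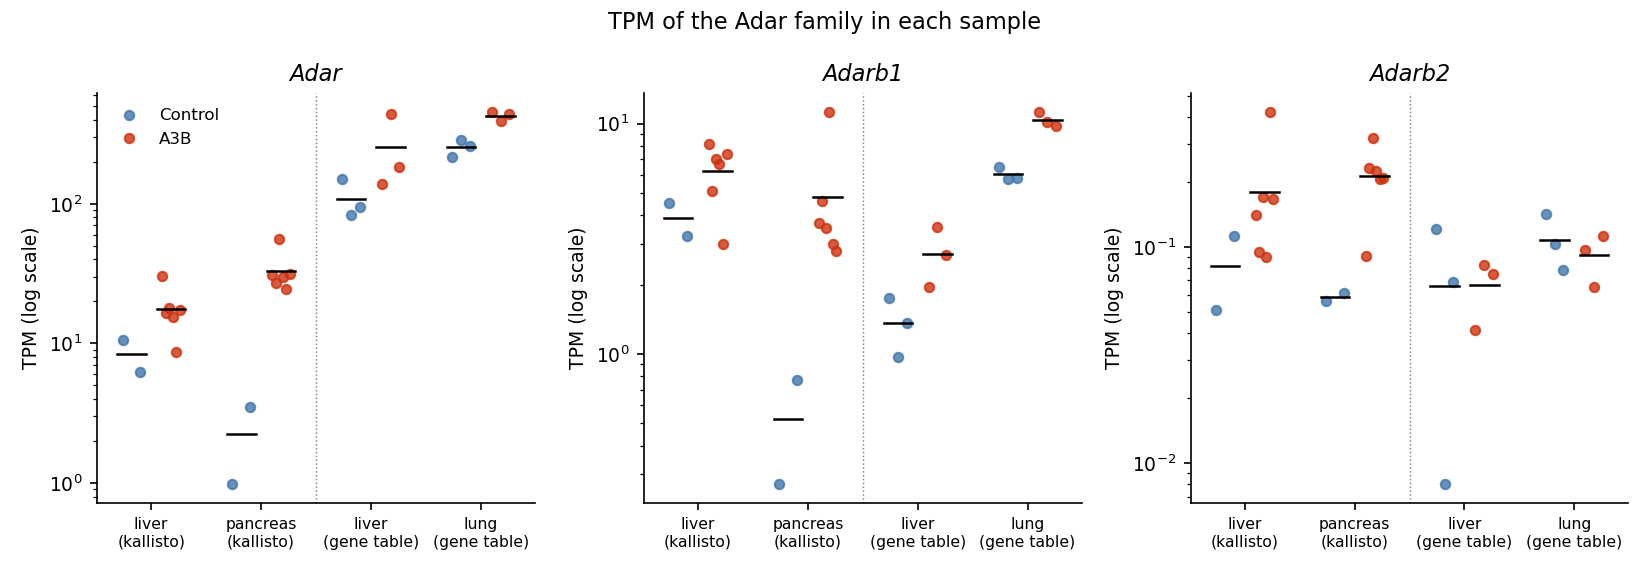
TPM of each gene (log axis) in every sample, by tissue and group, with the group mean as a bar. The dotted line separates the kallisto set from the gene table, whose levels are not on a common scale. Adar in A3B pancreases (24.5 to 55.8 TPM) lies above both controls (0.981 and 3.50 TPM), and in A3B lungs (392 to 454 TPM) above the 3 control lungs (216 to 287 TPM).

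The A3B difference of Adar was larger in pancreas than in liver. The difference between the tissues was 1.54 ± 0.38 (SE) on the log2 scale (edgeR interaction term, adjusted p = 0.0182), in a test that called 11.9% of 19908 genes (6.87% higher, 5.03% lower). The call rested on control mouse 45, since it was lost without its liver (1.33, adjusted p = 0.117) or without its pancreas (1.48, adjusted p = 0.0904). The levels of Adar ran from 2.24 ± 1.78 TPM in control pancreas (SD, n = 2) through 8.43 ± 3.08 TPM in control liver (n = 2) and 17.8 ± 7.09 TPM in A3B liver (n = 6) to 33.3 ± 11.4 TPM in A3B pancreas (n = 6). Control pancreas was below control liver (log2 difference -0.96, edgeR adjusted p = 0.0408, where 41.2% of 16336 genes were called, 18.5% higher and 22.7% lower) and A3B pancreas was above A3B liver (0.63, adjusted p = 0.0146, 58% of 17509 called, 31.5% higher and 26.5% lower). These fits took the samples as independent, although both control mice and 5 of the A3B mice gave both tissues. With the mouse as a replicate block, added after seeing the data, the control difference was not called (-0.94, adjusted p = 0.0908) and the A3B difference was (0.59, adjusted p = 0.0182). Control and A3B liver, which are neighbours in this order, did not pass the test either.

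In the second set, Adar was higher in A3B lungs. Control lungs had 216, 261 and 287 TPM and A3B lungs had 392, 442 and 454 TPM, so the groups did not overlap. The log2(TPM + 1) difference was 0.76 ± 0.13 (SE; limma, adjusted p = 0.00763), where 36.8% of 13651 genes were called, 16.1% as higher and 20.8% as lower, and 53.9% did not overlap between the groups (23.3% with A3B higher). It lay between 0.65 and 0.85 when single lungs were left out, and the call held without control lung 87, which carried the driver alone (0.65, adjusted p = 0.0172). In a fit that shared its spread with the livers the same difference was not called (adjusted p = 0.279). In the lung 1 of 5 macrophage markers was lower (summed level 1016 to 1147 TPM against 1302 to 1386 TPM in controls), as was 1 of 5 T cell markers (101 to 130 TPM against 140 to 236 TPM), 1 of 4 endothelial markers (501 to 706 TPM against 603 to 749.8 TPM) and 1 of 3 alveolar type II markers (9537 to 10619 TPM against 9262 to 10425 TPM). Of 5 fibroblast markers 1 was higher (229 to 324 TPM against 221 to 444 TPM), as was 1 of 3 tested markers of neurons and glia (19.2 to 35.9 TPM against 20.1 to 21.95 TPM). No marker of these lists was at 0 throughout a group. Their part in the result was not tested.

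The livers of the second set spread widely. Control livers had 83.4, 94.7 and 149.5 TPM of Adar and A3B livers had 138, 183 and 440 TPM, so control liver 11 lay above A3B liver 23. The log2(TPM + 1) difference was 1.07 ± 0.49 (SE; limma, adjusted p = 0.171), where 7.93% of 11507 genes were called (6.07% higher, 1.86% lower). It was 0.58 without A3B liver 28, the highest sample, and 1.32 without control liver 11. With samples centred on their median gene it was 0.61 (limma, adjusted p = 0.374). The lung and liver differences were not distinguishable (interaction -0.31 ± 0.53 SE, adjusted p = 0.71, 10.7% of 13477 genes called, 1.94% higher and 8.81% lower).

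Over all 14 livers, with labels exchanged only within a set, Adar was higher in the 9 A3B livers than in the 5 controls. The weighted log2(TPM + 1) difference was 1.001 (two-sided exact permutation p = 0.0125 over 560 exchanges, unadjusted, 1 of 3 genes tested so). It was 0.54 (exact permutation p = 0.025) when each sample was centred on its median gene, and 0.82 (exact permutation p = 0.0714) without control liver 168. In both sets the summed hepatocyte markers were lower in every A3B liver, as given above, although 0 of 5 passed the test in either (edgeR and limma), and their part in this difference was not tested. Of the acinar markers 1 was lower in each set (summed level 6.71 to 540 TPM against 79.3 and 117 TPM, and 9.82 to 10.4 TPM against 54.0 to 121 TPM). The 1 alveolar type II marker tested in the second set was higher (4.16 to 44.5 TPM against 0.472 to 1.42 TPM). Their part was not tested either.

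By kallisto's estimate the long isoform made up most of the coding Adar TPM in every sample but control pancreas 45, and its summed level was higher in A3B pancreases. Adar-201 and Adar-203 summed to 12.6, 13.9, 14.1, 15.9, 24.8 and 32.2 TPM in A3B pancreases, against 0.102 TPM in control 45 and 1.31 TPM in control 168. The A3B pancreases were all at least several-fold above both controls. A full separation is common in this tissue, since 70.8% of tested genes lay higher in every A3B pancreas than in both controls on the TPM scale. On the TMM scale 25.1% did. With counts scaled by totals, the median tested gene was itself higher by 2.29 on the log2 scale. As a summed count the long class differed by 2.71 ± 0.60 (SE) on the log2 scale (edgeR adjusted p = 0.00847, 31.9% of 19126 features called), and by 1.98 and 4.45 without control 45 and control 168, each still called. With Adar-204 and Adar-205 added to it, an alternative chosen after seeing the data, the difference was 2.55 (adjusted p = 0.0157). Without A3B pancreases 44 and 137, whose genotype label lacks the driver, also chosen after seeing the data, the long class differed by 2.64 (adjusted p = 0.0332) and Adar as a whole by 1.95 (adjusted p = 0.00469).

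The constitutive form was not shown to move in the pancreas. Adar-202 had between 2.04 and 3.798 TPM in the 6 A3B pancreases, 0.59 TPM in control 45 and no more than a trace in control 168. On the TMM scale that is 9.81 ± 2.36 CPM (SD, n = 6) against a control mean of 7.92 CPM, and the log2 difference was 0.33 ± 1.30 (SE; edgeR adjusted p = 0.868). The controls decide this value, since it was -0.68 without control 168 and the class had no counts to compare with when control 45 was left out.

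In the liver neither form was called. The long class had 5.69, 7.44, 9.02, 12.1, 13.8 and 20.3 TPM in A3B livers, and 9.20 and 5.71 TPM in controls 45 and 168, so the groups overlapped (log2 difference 0.32 ± 0.33 SE, edgeR adjusted p = 0.595, and 0.068 without control 168). The constitutive form had from less than 0.01 to 3.32 TPM in A3B livers and 0.356 and 0.0673 TPM in the controls (log2 difference 2.61 ± 1.69 SE, adjusted p = 0.384, 3.67% of 17368 features called, 1.27% higher and 2.41% lower). The difference of the long class between the tissues was 2.55 ± 0.66 (SE; edgeR interaction term, adjusted p = 0.0226, 11.9% of 19911 features called, 6.88% higher and 5.03% lower).

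**Figure D3:**
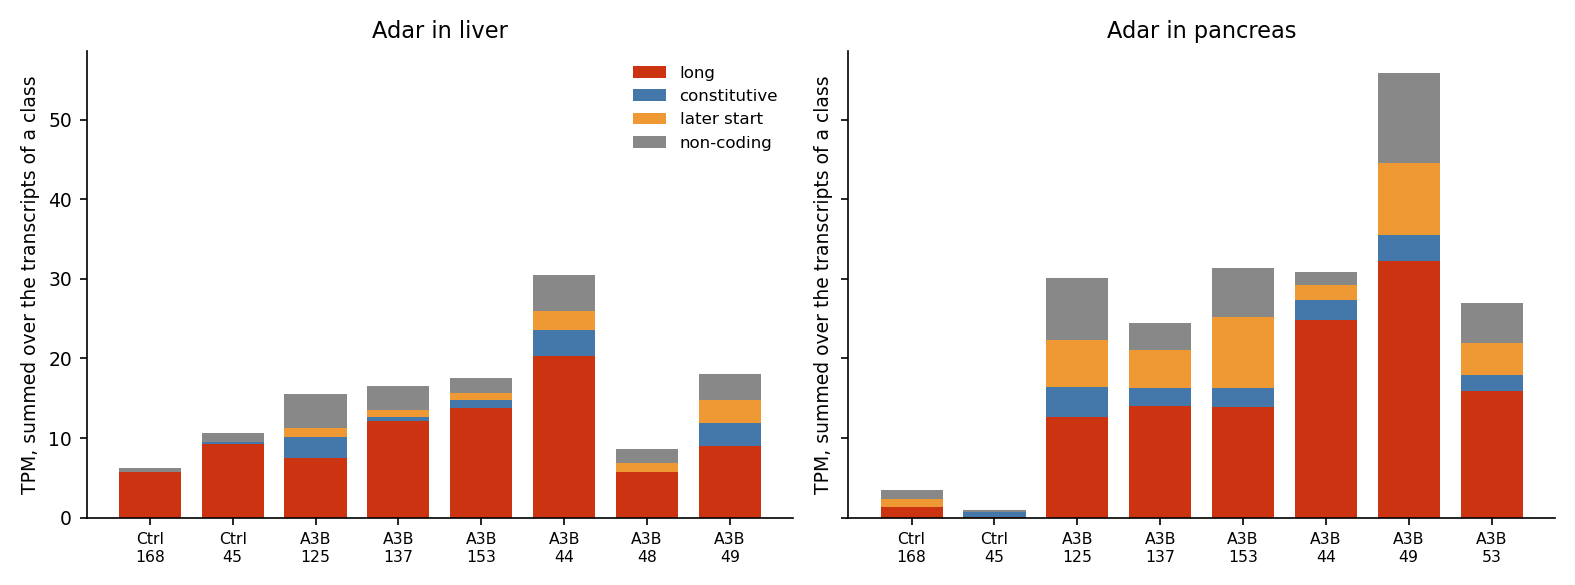
Summed TPM of the Adar transcripts of each class in every liver and pancreas of the kallisto set, as stacked bars from 0. The long class leads in all samples but control pancreas 45, and the controls of the pancreas hold little of any class (0.981 and 3.50 TPM in all).

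The balance of the 2 forms did not pass the test in either tissue at the settings used, and in the pancreas the answer turned with the pseudocount of a ratio. The long share of long plus constitutive TPM lay between 73.7% and 100% in A3B livers and was 96.3% and 98.8% in control livers 45 and 168. In A3B pancreases it lay between 76.9% and 91.0%, whereas the controls stood at opposite ends, with 14.7% in control 45 and 100% in control 168. The mean difference was -10.1 percentage points in liver (two-sided exact permutation p = 0.286) and 29.1 percentage points in pancreas (exact permutation p = 0.25), where 6 against 2 samples cannot give a p below 0.0357. The long class of control pancreas 45 rested on 49.6 estimated counts and its constitutive class on 289, against 5276 to 10569 and 959 to 1689 in the A3B pancreases, so the control share is the less precise one. As a log2 ratio of long to constitutive TPM the pancreas difference was 1.68 with a pseudocount of 0.1 TPM (exact permutation p = 0.286) and 2.02 with a pseudocount of 1 TPM (exact permutation p = 0.0357).

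The transcripts with a later start had estimated counts in all A3B livers and in neither control liver. Adar-204 and Adar-205 summed to between 125 and 356 estimated counts in the 6 A3B livers (2.42 ± 1.06 CPM, SD, n = 6) and to 0 in both controls. Of all tested genes 24.3% lay higher in all A3B livers on the TPM scale and 15% on the TMM scale, so such a separation is common there. The zeros are kallisto estimates, and the error of its division of reads among transcripts was not measured. The class was formed after the data were seen, so its fitted differences are given further on without a p-value. In the pancreas the class had between 1.90 and 9.01 TPM in A3B samples, 0.00145 TPM in control 45 and 1.06 TPM in control 168. Which of the 2 transcripts received the reads changed from sample to sample. Adar-205 had 9.01 TPM in A3B pancreas 49 and 8.85 TPM in A3B pancreas 153, where Adar-204 had none, whereas Adar-204 led in A3B pancreases 44 and 137.

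Of single transcripts, only Adar-203 was called by edgeR. It had between 9.40 and 20.1 TPM in A3B pancreases and 0.102 and 1.31 TPM in the controls (log2 difference 2.77 ± 0.62 SE, edgeR adjusted p = 0.0172), in a test that called 16.3% of 67317 transcripts (13% higher, 3.37% lower) and 1 of the 16 member transcripts tested. In the liver it had between 3.34 and 11.8 TPM in A3B samples and 3.57 and 2.79 TPM in the controls, and 0 of the 17 member transcripts tested were called, with 2 at an unadjusted p under 0.05, where 0.161% of 59515 transcripts were called (0.0235% higher, 0.138% lower). DESeq2 called 3 in the liver and 7 in the pancreas, and of all transcripts it was given (90131 and 95225, those without an adjusted p included) 3.7% and 18%. Adar-201, the other long transcript, had 12.8 TPM in A3B pancreas 44 and none in A3B pancreas 153, and none in either control. The non-coding transcript Adar-208, which retains an intron, had between 1.51 and 8.77 TPM in A3B pancreases and 0.287 and 0.67 TPM in the controls, and was not called (1.51 ± 0.68 SE, adjusted p = 0.161). The other non-coding transcript above 0.1 TPM, Adar-207, had at most 2.48 TPM.

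Adarb1 lies at chr10:77290726-77418270 on the minus strand. In A3B lungs it was higher, with 9.80, 10.2 and 11.2 TPM against 5.75, 5.82 and 6.50 TPM in control lungs. The groups did not overlap (53.9% of genes), and the log2(TPM + 1) difference was 0.70 ± 0.10 (SE; limma, adjusted p = 0.00495, where 36.8% of genes were called), between 0.65 and 0.75 when single lungs were left out. In the fit shared with the livers its adjusted p was 0.0579. In the livers of that set the 3 A3B samples (1.95, 2.68 and 3.55 TPM) lay above the 3 controls (0.972, 1.37 and 1.75 TPM), and 28.5% of tested genes were separated in that direction, 38.9% in either. The log2(TPM + 1) difference of 0.65 ± 0.30 (SE; limma, adjusted p = 0.18) did not pass the test and was 0.19 when samples were centred on their median gene.

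In the pancreas Adarb1 lay at 0.272 and 0.769 TPM in the controls and at 2.81, 3.003, 3.51, 3.70, 4.62 and 11.2 TPM in A3B mice. The groups did not overlap, as for 70.8% of tested genes on this scale, and pancreas 125 stood far above the other 5. On the TMM scale the levels were 17.3 ± 11.8 CPM (SD, n = 6) and 7.97 ± 1.13 CPM (n = 2), with a log2 difference of 1.11 ± 0.56 (SE; edgeR adjusted p = 0.158), and 0.65 (adjusted p = 0.0929) without pancreas 125. Scaling by totals gave 3.25 (adjusted p = 0.00214), on a scale where the median gene moved by 2.29. In the first set's livers the levels were 2.99 to 8.17 TPM, with a median of 6.87, in A3B mice and 4.54 and 3.24 TPM in controls 45 and 168 (log2 difference 0.07 ± 0.32 SE, adjusted p = 0.917). The order of Adarb1 levels was control pancreas, control liver, A3B pancreas and A3B liver (means of 0.521, 3.89, 4.81 and 6.23 TPM), and of the neighbours with a test only control pancreas and control liver differed (log2 difference -1.68, edgeR adjusted p = 0.0126, and -1.69, adjusted p = 0.0313, with the mouse as a replicate block).

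Over all 14 livers the weighted log2(TPM + 1) difference of Adarb1 was 0.58 (two-sided exact permutation p = 0.0214, unadjusted), and 0.12 (exact permutation p = 0.355) after centring on the median gene. Without control liver 168 it was 0.48 (exact permutation p = 0.1). None of its transcripts was called in either tissue by edgeR. Adarb1-201, Adarb1-202 and Adarb1-203 were the most abundant, with 0.27 to 3.25, 0.36 to 1.09 and 0.29 to 1.98 TPM in A3B livers. In A3B pancreas 125 the transcript Adarb1-206 had 2.32 TPM against at most 0.311 TPM in the other A3B pancreases.

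Adarb2, at chr13:8202866-8768747 on the plus strand, was near the limit of detection throughout. It had 0.0895 to 0.42 TPM in A3B livers against 0.0511 and 0.112 TPM in the controls of the first set, and 0.0909 to 0.319 TPM in A3B pancreases against 0.0559 and 0.061 TPM. Nearly all of it was Adarb2-203. The A3B pancreases were higher on the TPM scale, but the log2 difference was -0.54 ± 0.54 (SE; edgeR adjusted p = 0.468) on the TMM scale and 1.85 when scaled by totals, so its direction depended on the scale. In the gene table it lay between 0.00798 and 0.142 TPM, under the filter of 1 TPM, and was not tested there. Markers of neurons and glia, the cells Adarb2 is known from, summed to between 0.61 and 1.47 TPM in the livers of the first set.

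Genes related to Adar were read from lists of double-stranded RNA sensors, interferon signalling, Adar partners, other deaminases and known recoded transcripts. Of 19 sensors and effectors of double-stranded RNA, 13 were higher and 1 lower in the pancreas (17% and 14.9% of all genes), with a median log2 difference of 2.07 against 0.09 over all tested genes. Oas3, which makes the 2'-5' oligoadenylates that activate RNase L, had 14.2 to 36.2 TPM in A3B pancreases and 0.0278 and 0.167 TPM in controls (6.21 ± 0.57 SE, adjusted p = 0.000148). Oasl1, an interferon-induced relative of the OAS enzymes, rose by 3.69 ± 0.26 (SE; adjusted p = 6.05e-05) and Eif2ak2, the kinase PKR, by 2.19 ± 0.26 (SE; adjusted p = 0.000349), all by edgeR. Prkra, an activator of PKR, was the member called lower (-0.72), although its TPM was higher in all A3B pancreases (11.995 to 16.1 against 2.77 and 7.67), so its direction depends on the scale.

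In lungs 9 of these 19 genes were higher and 2 lower (16.1% and 20.8% of all genes, median 0.45 against -0.06 over all genes, limma), led by Oasl1 (1.56 ± 0.23 SE, adjusted p = 0.00555), Oas3 (1.67 ± 0.29 SE, adjusted p = 0.00847) and Dicer1, the enzyme that cuts microRNA precursors (0.53 ± 0.09 SE, adjusted p = 0.00675). The 2 lower ones were Prkra and Tarbp2, which both bind Dicer1. The higher count was 5 without A3B lung 74, and the median was 0.28 without control lung 87. In the fit shared by both tissues 1 of the 19 was called in lungs and 5 in livers, where that fit called 5.91% and 32.6% of all genes. In the livers 0 of 19 were called in either set, with 2 and 5 at an unadjusted p under 0.05 in edgeR and limma and 0 by DESeq2 (medians 0.63 against 0.21, and 0.85 against 0.39). The median was 0.0999 against 0.177 without control liver 168 of the first set, and 0.27 against 0.28 without A3B liver 28 of the second. Of the difference between pancreas and liver 5 of 19 were called higher (6.87% of all genes), with Dhx58 (LGP2), Oas3 and Eif2ak2 at 3.04, 4.72 and 1.69. The count was 8 with the mouse as a replicate block (5.47% of all genes higher), 9 by DESeq2 (6.75%), and 0 without the liver or the pancreas of control 45.

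Of 14 genes of interferon receptors and their signalling, 8 were higher and 1 lower in the pancreas (17% and 14.9% of all genes, median 1.07). Usp18, which restrains the interferon receptor, had 112 to 232 TPM against 0.669 and 1.12 TPM (5.33 ± 0.46 SE, edgeR adjusted p = 0.000126), Irf7 145 to 420 TPM against 1.59 and 3.08 TPM (4.53 ± 0.42 SE, adjusted p = 0.000152), and Irf9, the DNA-binding part of the factor that interferon activates, rose by 1.59 ± 0.25 (SE; adjusted p = 0.00134). Irf3 was called lower (-0.72), with higher TPM in A3B mice (30.2 to 65.1 against 13.2 and 26.2). The total was 9 genes, and 4 without control pancreas 45. Usp18 was also the 1 gene called in each set of livers (3.34 in the first by edgeR, adjusted p = 0.00687, and 4.29 in the second by limma, adjusted p = 0.0109), where 1.26% and 6.07% of all genes were higher. The call was lost without control 45 or control 168 in the first set, and without control 91 or control 92 in the second. In lungs 6 rose and 3 fell (16.1% and 20.8% of all genes, median -0.05). The counts were 2 and 4 without A3B lung 74, 3 and 2 without A3B lung 69, 3 and 3 without A3B lung 70, and 4 and 5, with a median of -0.29, without control lung 87, which carried the driver alone. Irf7 rose by 2.28 ± 0.25 (SE), Ifngr1 by 0.52 and Stat2 by 0.54, and Ifngr2 and Ifnar2, receptor subunits, fell by 0.72 and 0.54, as did Irf3 by 0.56. In the fit shared by both tissues limma called 5 of these 14 higher and 2 lower in livers (24.9% and 7.63% of all genes) and 0 in lungs (5.91% of all genes), against 11 at an unadjusted p under 0.05 in lungs alone.

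**Figure D4:**
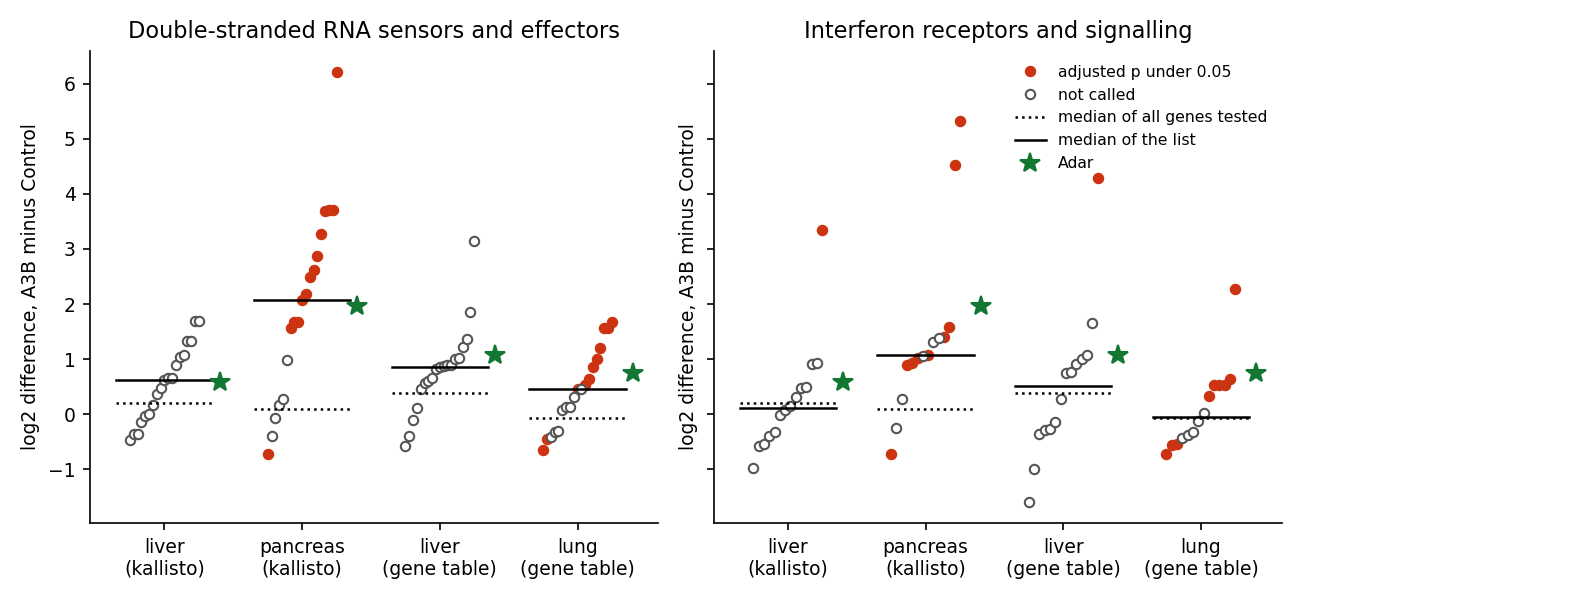
Log2 difference, A3B minus Control, of each listed gene in the 4 comparisons, ordered by size, with called genes filled, the list median as a solid line, the median of all tested genes dotted and Adar as a star. In the pancreas the sensor list has a median of 2.07 and Adar lies at 1.97.

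Of 20 measured regulators and partners of Adar, 5 were higher and 1 lower in the pancreas, where 17% and 14.9% of all genes were, and without control pancreas 45 the counts were 1 and 0. Fxr1, an RNA-binding relative of Fmr1, rose by 1.10 ± 0.20 (SE), the RNA helicase Dhx9 by 1.08 ± 0.25 and the nuclear import receptor Kpna3 by 0.92 ± 0.20 (edgeR adjusted p = 0.00232, 0.00892 and 0.00564). In the livers of both sets Cpsf6, a subunit of the cleavage factor for 3' ends, was higher (1.21 by edgeR, adjusted p = 0.0419, and 1.94 by limma, adjusted p = 0.0342), and Matr3 and Sfpq rose in the second set by 1.55 and 1.68 (1.26% and 6.07% of all genes higher). Among the 20 partners, with 6 and 11 at an unadjusted p under 0.05 and 1 called by DESeq2 in the first set, edgeR called 0 in that set with no filter or without liver 44, 45, 125, 137, 153 or 168, and limma called 0 in the second with no filter or without control 91, control 92 or A3B 23. In lungs 4 rose, Tnpo1 (an import receptor for Adar) by 1.22, Fmr1 by 0.47 and Zfr by 0.36 among them, and 3 fell, Tardbp by 0.75, Srsf9 by 0.60 and Aimp2 by 0.43 (16.1% and 20.8% of all genes). The higher count was 1 without control lung 91, A3B lung 69 or A3B lung 74. In the fit shared with the livers limma called 0 of the 20 in lungs, of which 8 had an unadjusted p under 0.05 in lungs alone, and 13 in livers (5.91% and 32.6% of all genes). Tnpo1 was also the 1 partner called in the difference between pancreas and liver (1.65, edgeR adjusted p = 0.0152). In that test 6.87% of all genes were higher and 5.03% lower.

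Of the other deaminases 4 of 6 were tested in the pancreas, where 17% of all genes were called higher and 14.9% lower. Adat3, a subunit of the enzyme that makes inosine at the wobble base of tRNAs, rose from 0 and 0.118 TPM to between 3.56 and 7.95 TPM (adjusted p = 0.00392), and Adat1, another tRNA deaminase, was called lower (-1.69, adjusted p = 0.0126) with a mean of 1.12 against 0.729 TPM. In lungs Endov, which cuts RNA at inosine, was lower by 0.31 (limma adjusted p = 0.0456, 20.8% of all genes lower), a call that held without control lung 87 and was lost when any other single lung was left out, with no filter and in the fit shared with the livers.

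Of transcripts with known recoding sites 3 of 19 rose and 2 fell in the pancreas, shares close to those over all genes (17% and 14.9%). Ctsb (cathepsin B) rose by 2.67 and Igfbp7 by 1.33 on the log2 scale. Azin1, the antizyme inhibitor, was lower in the pancreas (-1.39 ± 0.25 SE, edgeR adjusted p = 0.00247), where its TPM was higher (33.5 to 54.1 against 11.2 and 20.2). It was lower in the livers of that set as well (-1.32 ± 0.23 SE, adjusted p = 0.0194), with a mean of 26.3 ± 9.14 against 46.1 ± 9.75 TPM (2.41% of all genes lower). Gria3, a glutamate receptor, was called lower in both tissues (-1.31 and -3.12), but in the pancreas its TPM was higher in all A3B mice (0.865 to 1.83 against 0.528 and 0.623), so its direction there depends on the scale. Both liver calls, of Azin1 and Gria3, were lost without A3B liver 137 or control liver 45, and the list had 1 gene called lower without control liver 168. In the second set Cdk13 was higher in livers (1.60, 6.07% of all genes higher) and lungs (0.58, 16.1%), with Son and Cog3 at 0.49 and 0.30 in lungs. The liver call was lost without control 91, control 92, A3B 23 or A3B 28, with no filter and after centring on the median gene, and the list had 1 gene called higher in lungs without A3B lung 69, in place of 3. Expression of a target says nothing of how often it is edited, which was not analysed here.

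Across the 16 samples of the first set, with each tissue centred on its own mean, the genes most like Adar among 16736 were Oas3 (Pearson r = 0.957), N4bp1 (0.947), Trex1 (0.946), which degrades DNA in the cytosol, Lgals3bp (0.946) and the sensor Ifih1 (0.941). In the 12 samples of the second set, centred likewise, their r with Adar was 0.873 for Oas3, 0.821 for N4bp1, 0.931 for Lgals3bp and 0.926 for Ifih1. The 5 most like the long class were Dtx3l (0.968), Gemin4 (0.962), Parp9 (0.951), Ddx60 (0.944) and Rnf111 (0.940), and of these Gemin4 had an r of 0.13 with Adar in the second set and the others between 0.764 and 0.936. Adarb1 followed Adar less closely in the first set (0.500) than in the second (0.903), and was most like Dst (0.881), Spag9 (0.838) and Gm29667 (0.835). The points of each r share the A3B contrast, their library and its scaling, so these values describe a likeness and carry no test.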

How the data were processed

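RNA-seq of total RNA (stranded TruSeq libraries) was read from deposited files. In the first set (liver and pancreas) every transcript has an estimated count and a TPM, which the authors made with kallisto against mm10. For the second set the authors deposited TPM per gene, from a read-count matrix made with GenomicAlignments and GenomicFeatures. The study's reads were aligned to mm10 with STAR, and the file headers name alignments with duplicates removed. The use of strand and the gene lengths are not given in the sources used here. Both are normalised only within a sample, and the authors did not pool replicates. No read was realigned, no per-sample column was left unused (0), and fold changes of low genes in the second set are understated by the pseudocount.

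Transcripts were matched by ID to GENCODE M21 on GRCm38 (116640 of 119414), and estimated counts were summed per gene, rounded and tested with edgeR 4.0.16 (filterByExpr, TMM, the quasi-likelihood test with robust spread). Each tissue gave an A3B against Control contrast, and both together an interaction. Unmatched transcripts held 0.23% to 1.47% of counts and were left out. TPM of the second set were tested with limma 3.58.1 on log2(TPM + 1), for genes whose mean reached 1 TPM. P-values were adjusted by Benjamini-Hochberg over all features of a test, with a threshold of 0.05. Summed counts of the Adar classes replaced the Adar row. Long transcripts are those whose frame starts in the inducible first exon, constitutive ones those that start in the next exon. kallisto's division of reads among transcripts is an estimate whose error no test here sees. Shares and all livers were compared by two-sided exact permutation tests. Alternatives used DESeq2 1.42.0, other scalings, filters and pseudocounts, and left out each sample. Tests were checked on simulated data. Further software was R 4.3.3, Python 3.11.15, scipy 1.17.1, pandas 2.3.3, matplotlib 3.10.9 and numpy 2.4.6.

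The members and lists were chosen with earlier results of these data known. Named genes are the 3 members, their transcripts whose mean reached 0.1 TPM in a group, up to 3 called list members per direction with the smallest p, and the 5 (for Adarb1, 3) most correlated genes. Some genes that this rule names are not reported here. Liver and pancreas come from the same animals in 7 mice, so the mouse pairs them. The correlation of a mouse's deviations from the group means in the 2 tissues lay between -0.00478 and 0.28. No 2 samples were identical (highest r between samples 0.984 in the first set and 0.995 in the second). Mice are separate animals, and each tissue of a mouse gave 1 library.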

Additional observations from a re-analysis of the deposited data

Results flagged for a closer look

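Among the 6 A3B samples of a tissue, some members had 1 sample far from the rest, a gap that chance alone gives in about 1 of 20 groups. Adar in A3B pancreas 49 stood at 55.8 TPM against 24.5 to 31.3 TPM in the other 5. Adarb1 in A3B pancreas 125 stood at 11.2 TPM against 2.81 to 4.62 TPM, and the same sample was apart for Adarb1-202 (2.81 TPM), Adarb1-206 (2.32 TPM), Adarb1-208 (0.552 TPM) and Adarb1-209 (0.857 TPM). Adarb2 in A3B liver 48 stood at 0.42 TPM against 0.0895 to 0.17 TPM, almost all of it Adarb2-203 (0.42 TPM), and that liver also had the lowest Adar of the 6 (8.65 TPM). In all, 8 of 48 groups of values had a sample apart, and these were 3 samples.

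The A3B effect passed the test of a difference between pancreas and liver for Adar (1.54 on the log2 scale), a call lost without the liver or the pancreas of control 45, and for its long class (2.55).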

How the results depend on the processing

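Apart from fits that left out a sample, 131 values of the comparisons above kept their direction and their side of the threshold under an alternative, 11 changed sign, 8 passed the threshold only there, 5 no longer passed it and 13 counts moved by over 1.5 times. Scaling counts by totals gave Adarb1 3.25 in the pancreas and 2.72 for pancreas minus liver (both called), Adarb2 1.85 in the pancreas (called) and 0.62 for pancreas minus liver, the later-start class 3.51 in the pancreas, and 0.26 for Adarb1-208 and 0.083 for Adar-201 in liver and 2.18 for Adarb1-201 and 1.81 for Adarb2-203 in pancreas, of the opposite sign. It called 6 member transcripts and 69 listed genes in the pancreas and 56 for pancreas minus liver, where it called 71.6% and 40.5% of all genes. In limma on log2(TPM + 1) and log2(TPM + 0.1) Adarb1 was 1.82 and 2.93 and Adarb2 0.19 and 0.94 in the pancreas, all called, with 70 and 72 listed genes called (67.6% and 71.9% of all genes). DESeq2 gave -0.01 for Adarb1 in liver (-0.00767), 3 member transcripts called in liver, 7 in pancreas and 22 listed genes for pancreas minus liver (13.9% of all genes). A fit of all 16 samples gave -0.01 for Adarb1 in liver (-0.0150). In a fit of both tissues of the second set, Adar (1.07) and Adarb1 (0.65) were called in liver and Adar (0.76) and Adarb1 (0.70) were not called in lung, with 32 listed genes called in liver and 1 in lung (32.6% and 5.91% of all genes). The livers of that set had 1 listed gene called with no filter and 3 after centring on the median gene (0.282% and 6.34% of all genes). A pseudocount of 0.1 gave -0.17 for Adarb1 in lung minus liver. A pseudocount of 1 TPM gave a log2 ratio of long to constitutive Adar of 2.02 in the pancreas (exact permutation p = 0.0357, the smallest possible). Over all livers, Adar was 0.046 with the sets pooled and Adarb1 0.12 after centring. Adarb2 there was 0.07 (exact permutation p = 0.314), and -0.39 after centring (exact permutation p = 0.0321), both unadjusted. Its levels were below the pseudocount of 1 TPM. The cause of these changes was not tested.

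With the mouse as a replicate block, pancreas minus liver was 1.46 for Adar (adjusted p = 0.0302), 0.85 for Adarb1, -0.65 for Adarb2, 2.93 for the long class (adjusted p = 0.0426), 0.046 for the constitutive class (opposite sign) and -8.79 for the later-start class, and lung minus liver was -0.38 for Adar and -0.01 for Adarb1 (opposite sign, -0.0146), with 15 listed genes called in each (7.99% and 19.3% of all genes). The value of the later-start class rests on control livers with 0 counts of it, so its size cannot be read. Within a group, the block gave -0.94 for Adar between the control tissues (adjusted p = 0.0908, no longer called) and 0.44 for Adarb2 between the A3B tissues (opposite sign). The block changed no other call of a member.

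Leaving out single samples gave the following lowest and highest values. Adar in liver ran from 0.31 to 0.74, its long class there from 0.068 to 0.44, Adarb1 in liver from -0.12 to 0.12 and in pancreas from 0.65 to 1.28, Adarb2 in pancreas from -0.98 to 0.090, the constitutive class in pancreas from -0.68 to 13.1 and the later-start class there from 0.75 to 12.7, where the highest values rest on a control without counts. Adar ran from 1.33 to 1.76 for pancreas minus liver and from -0.66 to 0.17 for lung minus liver, and Adarb1 from -0.11 to 0.21 for the latter. Over all livers Adar ran from 0.81 to 1.19 and Adarb1 from 0.48 to 0.69. The long share in pancreas ran from -13.6 to 71.7 percentage points and the log2 ratio from -1.12 to 4.47. Of transcripts in liver, Adarb1-203 ran from -0.11 to 0.98, Adarb1-208 from -1.44 to 7.85, Adarb1-209 from -0.10 to 0.26, Adarb1-205 from -0.01 (-0.0116) to 10.7 and Adarb2-203 from -0.02 (-0.0150) to 1.62. In pancreas Adarb1-201 ran from -1.07 to 3.01, Adar-202 from -0.22 to 13.1, Adar-207 from -0.18 to 7.53 and Adarb2-203 from -0.57 to 0.36. Member transcripts called in pancreas ran from 1 to 3. Listed genes called ran from 0 to 5 in liver and 22 to 37 in pancreas, 2 to 19 for pancreas minus liver, 0 to 14 in liver and 18 to 28 in lung of the second set, and 4 to 21 for lung minus liver.

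Both control groups of the first set hold 2 mice, so each control decides much of every value there. The error of the division of reads among transcripts was not measured, and control pancreas 45 had few counts of any class. The second set gives no counts, so its depth is unknown.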
